A study of Homo sapiens with 6 samples.

Results

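Metallothioneins are small cysteine-rich proteins that bind zinc and copper, and cells make more of their messenger RNA when free zinc or other metals rise. MTF1, the metal regulatory transcription factor, senses zinc through its zinc fingers and binds metal response elements in the promoters of metallothionein genes and of SLC30A1. SLC30A1 encodes ZnT1, the transporter that exports zinc across the plasma membrane. In glia, metallothioneins are known as zinc buffers and scavengers of reactive oxygen species.

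The 9 genes described here were chosen by symbol as this zinc-response group, out of 61496 features in the table. They are 7 metallothioneins (MT1A, MT1E, MT1F, MT1G, MT1M, MT1X and MT2A), the factor MTF1 and the exporter SLC30A1. RNA was measured in U251, an established human glioma cell line, either left untreated (control) or exposed for 2 h to sevoflurane (Sev), an inhaled anesthetic. Each group had 3 libraries. All cells were grown in DMEM with serum, and no genetic change was made in either group. The protocol lists Sev at 1.7%, at 3.4% and at 5.1%. The highest of these is the one named with the plot of the sequencing, while the labels give no concentration for the single library. The methods speak of independent experiments for quantitative data in general, and the labels do not say whether these libraries came from separate cultures. The p-values measure the spread between these libraries, which may be technical.

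Library totals were 38624292 to 46318311 counts. Within the Sev group, replicate 2 stood apart from the others, with a chi-square of 101.9 and 112.6 per gene against replicates 1 and 3, whereas replicates 1 and 3 differed by 40.7. Control replicate 3 was also farther from the other control libraries (77.7 and 78.4) than these were from each other (47.9). Sev replicate 2 also held 39 counts of the heat-shock gene HSPA1A, against 2164 and 2438 in the other Sev libraries. The results for SLC30A1, MT1X, MT2A and MT1E, in which Sev replicate 2 was the highest library, are given with and without it. The glial and glioma markers VIM, NES, CD44, GFAP, SOX2, SOX9 and S100B were detected in every library. Their summed level was 1251 to 1463 FPKM in control and 1257 to 1372 FPKM in Sev cells. Most of it came from VIM, with 828 to 1027 FPKM in control and 867 to 1001 FPKM in Sev cells. The sum therefore says little about the other markers. FPKM are fragments scaled to gene length and sequencing depth, as the authors deposited them. The endothelial list summed to 0.778 to 1.02 FPKM in control and 0.756 to 0.977 in Sev cells, and the epithelial list to 0.0489 to 0.216 and 0.0228 to 0.13 FPKM. The sum of the immune markers PTPRC, CD14 and CD3E was 0.645 to 0.731 FPKM in control and 1.85 to 2.73 FPKM in Sev cells, and moved with the Sev group through CD14. Its part in the changes of the member genes was not tested. The pan-leukocyte gene PTPRC had at most 12 counts in any library and CD3E 0. In bulk RNA, fewer cells of a type and less RNA per cell cannot be told apart.

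All 7 metallothionein members lie in 1 cluster on chromosome 16, in GENCODE 29 on GRCh38. MT2A (ENSG00000125148) spans chr16:56608199-56609497 on the plus strand, MT1E (ENSG00000169715) chr16:56625475-56627112, MT1F (ENSG00000198417) chr16:56657694-56660698 and MT1X (ENSG00000187193) chr16:56682424-56684196, all on the plus strand. MT1M (ENSG00000205364) at chr16:56632233-56633986 and MT1A (ENSG00000205362) at chr16:56638666-56640087 are on the plus strand, and MT1G (ENSG00000125144) at chr16:56666731-56668065 is on the minus strand. MTF1 (ENSG00000188786) at chr1:37809567-37859620 and SLC30A1 (ENSG00000170385) at chr1:211571568-211578742 are on the minus strand of chromosome 1.

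The coding sequences show how alike the metallothioneins are, which bears on how reads are assigned to them. Each member has a transcript with 183 coding bases in 3 exons, without the stop codon, that is 61 codons of which 20 encode cysteine. Identity over all 21 pairs of members ranged from 88.5% to 95.1%. MT1X and MT1E each differed from MT2A at 14 bases (92.3% identity), and MT1F at 16 (91.3%). The 4 expressed genes are shown 5′ to 3′ from GENCODE 29, with the bases that differ from MT2A in capitals.
MT2A: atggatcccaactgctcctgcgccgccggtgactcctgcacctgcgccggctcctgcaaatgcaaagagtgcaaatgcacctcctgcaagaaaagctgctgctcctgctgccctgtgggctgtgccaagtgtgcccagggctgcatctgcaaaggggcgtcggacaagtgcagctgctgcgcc
MT1X: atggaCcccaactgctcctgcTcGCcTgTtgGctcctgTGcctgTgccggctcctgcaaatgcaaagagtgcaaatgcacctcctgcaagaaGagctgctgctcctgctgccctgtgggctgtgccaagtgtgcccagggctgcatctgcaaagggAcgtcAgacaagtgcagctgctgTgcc
MT1E: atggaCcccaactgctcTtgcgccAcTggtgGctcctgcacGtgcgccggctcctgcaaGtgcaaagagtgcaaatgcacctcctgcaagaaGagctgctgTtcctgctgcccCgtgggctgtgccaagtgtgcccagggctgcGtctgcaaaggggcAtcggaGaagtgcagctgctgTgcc
MT1F: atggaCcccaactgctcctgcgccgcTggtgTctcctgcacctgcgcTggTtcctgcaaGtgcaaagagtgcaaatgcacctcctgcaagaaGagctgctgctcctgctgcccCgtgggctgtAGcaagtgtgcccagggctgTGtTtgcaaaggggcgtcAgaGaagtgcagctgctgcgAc

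Over whole transcripts the overlap was smaller. Of all 50-base windows in its transcripts, MT2A shared 3.02% with the transcripts of another gene, MT1E 7.10%, MT1F 1.22% and SLC30A1 0%. MT1X shared 18.3%, of which 273 of 341 windows were those of the same-strand transcript AC026461.1, a feature with 0 counts in all 6 libraries. MT1G shared 16.5%, MT1M 9.87%, MT1A 5.76% and MTF1 0.891%. How reads that match several genes were counted is not given in the sources used here, so the split among metallothioneins is uncertain within these windows.

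The promoters are shown because metal response elements are the known binding sites of MTF1. RefSeq (GRCh38.p14) promoters were matched for 4 of the 9 genes, MT2A, MT1X, SLC30A1 and MTF1. The element core was searched as TGCACNC and TGCGCNC on both strands in the 250 bases before the start. Overlapping matches were counted separately, but the promoters of these 4 genes held none that overlapped. MT2A held 7 matches, as many as were found in 0.0313% of 35116 promoters of the same length, and MT1X held 4, reached by 0.370%. SLC30A1 held 1 match, as 24.8% of all promoters did at least, and MTF1 held none. A match describes letters only and does not show binding. The windows of MT2A (chr16:56608334-56608583, plus strand), MT1X (chr16:56682220-56682469, plus strand) and SLC30A1 (chr1:211579162-211579411, minus strand) are printed 5′ to 3′ along the gene, with the matches in capitals.
MT2A promoter: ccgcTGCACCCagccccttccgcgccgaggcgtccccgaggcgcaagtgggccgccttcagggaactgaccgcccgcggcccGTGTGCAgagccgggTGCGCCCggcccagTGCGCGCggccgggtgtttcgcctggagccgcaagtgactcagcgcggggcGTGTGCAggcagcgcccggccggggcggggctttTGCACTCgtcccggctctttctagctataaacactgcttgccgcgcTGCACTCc
MT1X promoter: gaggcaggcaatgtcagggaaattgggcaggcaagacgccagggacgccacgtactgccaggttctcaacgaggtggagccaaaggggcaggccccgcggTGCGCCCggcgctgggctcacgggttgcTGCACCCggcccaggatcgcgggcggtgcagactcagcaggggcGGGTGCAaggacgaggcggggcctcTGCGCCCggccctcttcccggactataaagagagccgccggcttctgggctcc
SLC30A1 promoter: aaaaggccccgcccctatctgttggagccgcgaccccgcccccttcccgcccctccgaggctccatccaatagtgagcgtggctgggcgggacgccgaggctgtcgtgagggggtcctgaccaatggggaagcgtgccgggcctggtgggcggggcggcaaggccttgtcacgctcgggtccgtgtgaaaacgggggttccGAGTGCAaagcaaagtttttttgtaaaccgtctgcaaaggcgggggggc

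In MT2A the matches lay between positions −246 and −2 from the start, 5 on the gene strand and 2 on the other. In MT1X they lay between −150 and −47, and the match of SLC30A1 covered −49 to −43 on the other strand. Positions count from the RefSeq starts, which differ from the ends of the GENCODE spans. The MT2A window lies inside the GENCODE span of MT2A, the MT1X window overlaps that of MT1X, and the SLC30A1 window lies upstream of the span of SLC30A1 without touching it.

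**Figure D1:**
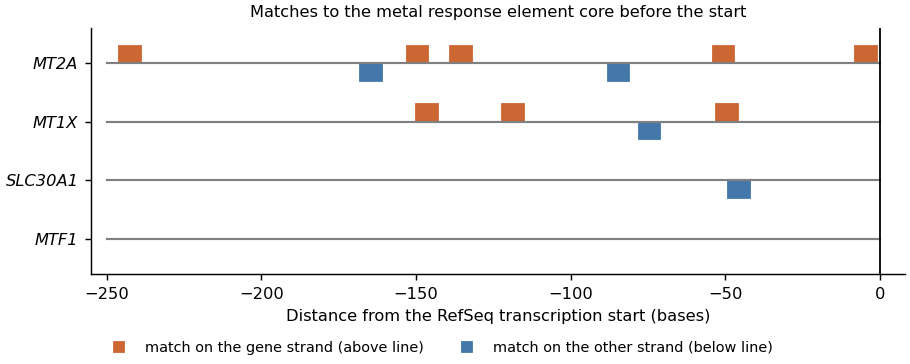
Positions of matches to the metal response element core in the 250 bases before the RefSeq start of 4 members. The x axis gives the distance from the start in bases, boxes above a line are matches on the gene strand and boxes below it matches on the other strand. MT2A has 7 matches, MT1X 4, SLC30A1 1 and MTF1 none.

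Sev against control was the only contrast of the design, and it asked which of these genes changed after the exposure. The exporter SLC30A1 rose 2.73-fold and MT1X rose 1.99-fold, while MTF1 fell by 0.28 on the log2 scale, with an adjusted p of 0.0479 and a call that was lost in 9 of 15 alternatives. MT2A, MT1E and MT1F were above control in every Sev library in normalized counts but did not pass the adjusted limit. In the authors' FPKM the groups overlapped for each of them. MT1A, MT1G and MT1M had no count in any library. Called means an adjusted p under 0.05 in edgeR's quasi-likelihood test over 27514 features. Of the 6 members with counts, all of which passed the expression filter, 2 were called higher and 1 lower, against 22.1% and 21.5% of all tested features. At the methods' threshold, a log2 fold change over 1 in size with an unadjusted p under 0.05, 1 of the 6 passed, SLC30A1, against 23.5% of all features. MT1X, at 0.996, lay just under the limit of 1, and 2 members passed with DESeq2's size factors or Wald test (MT1X at 1.01 in each) and without control replicate 1 (1.04), control replicate 3 (1.04), Sev replicate 1 (1.05) or Sev replicate 3 (1.15). The groups did not overlap in normalized counts for any of the 6, as for 56.5% of all features. The median log2 fold change of the 6 was 0.41, and that of all features −0.0056.

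**Figure D2:**
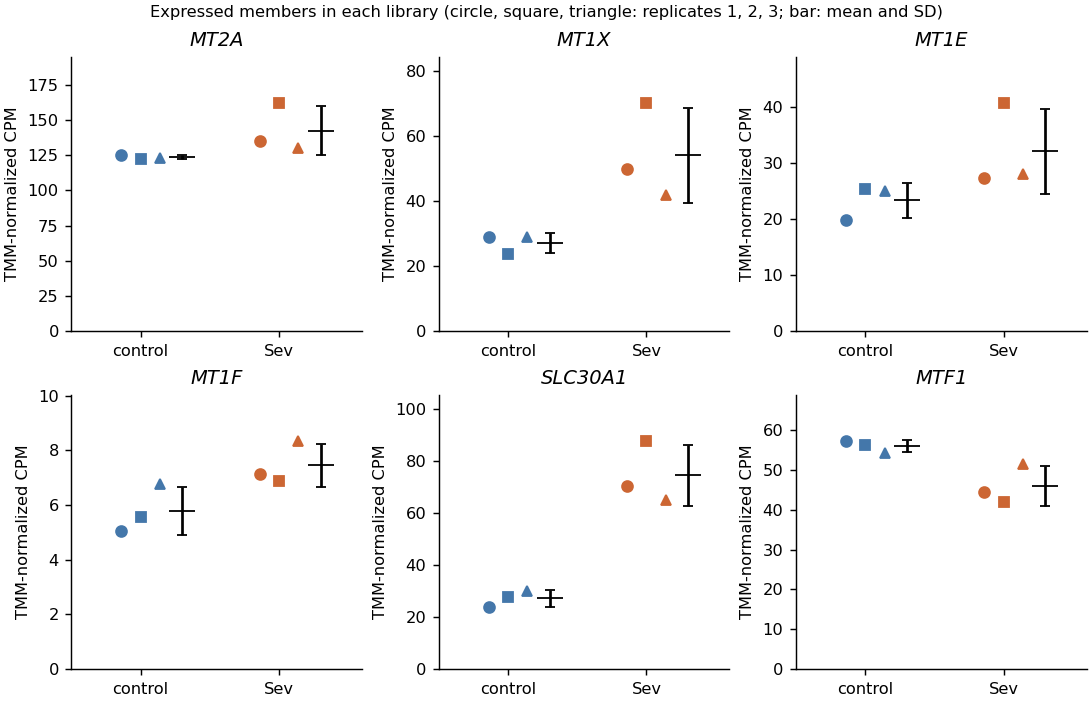
TMM-normalized CPM (y axis, from 0) of the 6 members with counts, in control and Sev libraries. Circles, squares and triangles are replicates 1, 2 and 3, and bars give the mean and SD of 3 libraries. For SLC30A1 the Sev libraries sit between 65.0 and 87.8 and the control libraries between 23.6 and 30.2, and for MTF1 all Sev libraries sit below control.

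SLC30A1, the zinc exporter of the plasma membrane, had 1000, 1104 and 1464 counts in control replicates 1, 2 and 3 and 2656, 3298 and 2576 in Sev replicates 1, 2 and 3. Scaled to the libraries by TMM, these were 23.6, 27.9 and 30.2 CPM, counts scaled to a common library total, in control and 70.5, 87.8 and 65.0 in Sev cells. Every Sev library was far above every control library, and Sev replicate 2 was the highest. The mean went from 27.2 ± 3.31 CPM (SD, n = 3) to 74.4 ± 11.9, a log2 fold change of 1.45 (SE 0.14, edgeR adjusted p = 0.000298). Without Sev replicate 2 the log2 fold change was 1.32.

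MT1X was the metallothionein with the largest fold change among the 4 that had counts. Its counts were 1220, 931 and 1400 in control and 1881, 2637 and 1659 in Sev cells. The normalized values were 28.8, 23.5 and 28.8 CPM in control and 49.9, 70.2 and 41.9 in Sev cells, so that the groups did not overlap and Sev replicate 2 was far above the other Sev libraries. The mean went from 27.1 ± 3.08 CPM to 54.0 ± 14.6 (SD, n = 3), a log2 fold change of 0.996 (SE 0.19, edgeR adjusted p = 0.00448). Without Sev replicate 2 it was 0.77, and the call held.

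MT2A, the most abundant metallothionein here, had 5313, 4859 and 5995 counts in control and 5083, 6107 and 5153 in Sev cells. The normalized values were 125.6, 122.6 and 123.5 CPM in control and 134.9, 162.5 and 130.1 in Sev cells. The control libraries lay close together, and the Sev libraries were slightly above them except for replicate 2, which was well above. The mean went from 123.9 ± 1.52 to 142.5 ± 17.5 CPM (SD, n = 3), a log2 fold change of 0.20 (SE 0.098) that did not pass in edgeR (adjusted p = 0.131). Without Sev replicate 2 the log2 fold change was 0.10.

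MT1E had 837, 1003 and 1216 counts in control and 1032, 1534 and 1114 in Sev cells. The normalized values were 19.8, 25.3 and 25 CPM in control and 27.4, 40.8 and 28.1 in Sev cells, with Sev replicate 2 again the highest and the other Sev libraries just above control. The means were 23.4 ± 3.12 and 32.1 ± 7.55 CPM (SD, n = 3), and the log2 fold change of 0.46 (SE 0.18) did not pass in edgeR (adjusted p = 0.0699). It was 0.25 without Sev replicate 2, with an adjusted p of up to 0.212 when single libraries were left out. DESeq2's Wald test put it past the limit, with a log2 fold change of 0.47 and an adjusted p of 0.0378.

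MT1F was the lowest of the 4, with 214, 220 and 329 counts in control and 269, 258 and 331 in Sev cells. Normalized, these were 5.06, 5.55 and 6.78 CPM in control and 7.14, 6.87 and 8.35 in Sev cells, where Sev replicate 2 was the lowest of its group. The means of 5.80 ± 0.885 and 7.45 ± 0.792 CPM (SD, n = 3) differed by a log2 fold change of 0.36 (SE 0.17, edgeR adjusted p = 0.111), which did not pass.

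MTF1, the transcription factor, had 2427, 2228 and 2640 counts in control and 1679, 1575 and 2043 in Sev cells. The normalized values were 57.4, 56.2 and 54.4 CPM in control and 44.6, 41.9 and 51.6 in Sev cells. All Sev libraries were below control, with Sev replicate 3 close to it. The mean went from 56.0 ± 1.51 to 46.0 ± 4.99 CPM (SD, n = 3), a log2 fold change of −0.28 (SE 0.098, edgeR adjusted p = 0.0479). With single libraries left out this call was lost in 5 of 6 fits, the adjusted p being up to 0.147, and it held without Sev replicate 3. MTF1 overlaps the pseudogene AL929472.4 on the opposite strand, and whether the counting used strand is not given in the sources used here.

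MT1A, MT1G and MT1M had 0 counts in all 6 libraries. A count of 0 allows up to 3 counts, or 0.0648 to 0.0777 CPM on the unadjusted library total, so lower levels were not detectable at this depth. These limits cover counting error only.

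The size of these differences depended on the scaling. Scaling by library size alone moved the median log2 fold change of all features by −0.141. On that scale MT2A was at 0.06, MT1F at 0.22, MT1E at 0.31, MT1X at 0.84, SLC30A1 at 1.31 and MTF1 at −0.42, and no member changed direction. The authors' FPKM, which are not TMM-scaled, overlapped between the groups for MT2A (112.5 to 120.0 in control, 113.7 to 132.7 in Sev cells), MT1E (16.4 to 20.2 and 20.1 to 28.9) and MT1F (2.37 to 3.10 and 2.74 to 3.59). They did not overlap for MT1X (11.4 to 14.5 and 19.3 to 30.2), SLC30A1 (3.48 to 4.33 and 8.77 to 11.1) and MTF1 (5.76 to 6.24 and 3.90 to 5.13).

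The FPKM also gave the order of levels between genes, per length. In control cells MT2A was highest, followed by MT1E, MT1X, MTF1, SLC30A1 and MT1F, and no neighbours in this order overlapped in range. In Sev cells MT2A was again highest and MT1F lowest. There MT1X and MT1E overlapped in range, and SLC30A1 lay above MTF1, the reverse of the control order. Both orders rest on the gene lengths implied by counts and FPKM. These were 1.12 kb for MT2A, 1.30 kb for MT1E, 2.13 kb for MT1X and 2.29 kb for MT1F. For SLC30A1 and MTF1 they were 7.28 and 9.86 kb. Whether transcripts of these lengths were present was not tested, so the orders are uncertain. In counts, the control ratio of MT1X to MT1E was 1.18 ± 0.266 (SD, n = 3).

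Ratios within a library do not depend on its scaling. MT2A made up 70.1%, 69.3% and 67.1% of the counts of the metallothionein members in control replicates 1, 2 and 3, and 61.5%, 58.0% and 62.4% in Sev replicates 1, 2 and 3. MT1X made up 16.1%, 13.3% and 15.7% in control and 22.8%, 25% and 20.1% in Sev cells. Neither gene's shares overlapped between the groups. The mean share of MT2A was 68.8% ± 1.56 in control and 60.6% ± 2.35 in Sev cells, and that of MT1X 15% ± 1.51 and 22.6% ± 2.47 (SD, n = 3). MT1E ranged from 11% to 14.3% in control and from 12.5% to 14.6% in Sev cells, and MT1F from 2.82% to 3.68% and from 2.45% to 4.01%, with overlap in each case. These are shares of counts, not per length. The summed normalized count of the metallothionein members was 179, 177 and 184 CPM in control and 219, 280 and 208 CPM in Sev cells.

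**Figure D3:**
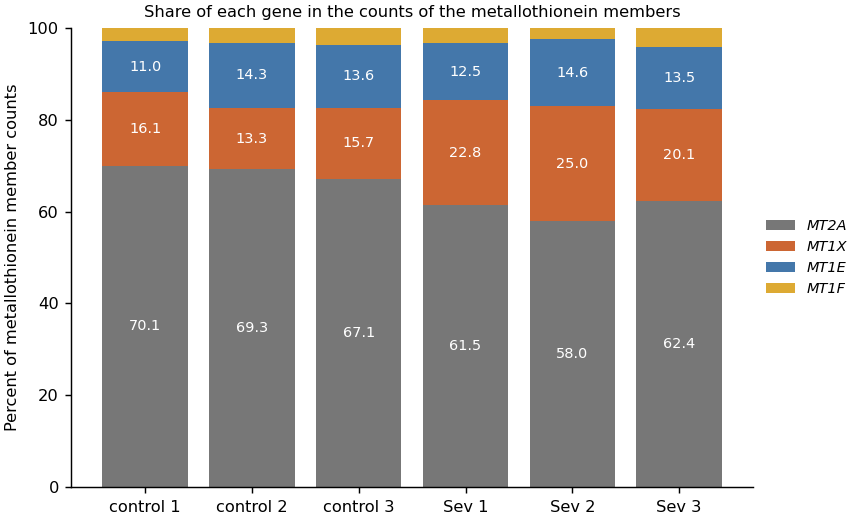
Share of each gene (y axis, percent) in the counts of the metallothionein members in each of the 6 libraries (x axis). The MT1X segment takes 13.3% to 16.1% in control and 20.1% to 25% in Sev libraries, and the MT2A segment 67.1% to 70.1% and 58.0% to 62.4%.

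A total of 8 pairs of members were compared by their ratio of counts within each library. The pairs were chosen after the values were seen, and 0.1 is the smallest p that exact permutation of 3 and 3 libraries can give. The ratio of MT1X to MT2A was 0.218 ± 0.0232 in control and 0.375 ± 0.0551 in Sev cells (SD, n = 3), a log2 difference of 0.77 (SE 0.15, two-sided exact permutation p = 0.1, Benjamini-Hochberg adjusted 0.2). The ratio of SLC30A1 to MTF1 was 0.487 ± 0.0716 in control and 1.65 ± 0.420 in Sev cells, a log2 difference of 1.74 (SE 0.25) with the same p-values in the exact permutation test. The ratios of MT1X to MT1E and of SLC30A1 to MT1X also did not overlap between the groups, with log2 differences of 0.53 (SE 0.21) and 0.48 (SE 0.18). The other 4 pairs overlapped. Without Sev replicate 2, an alternative chosen after the data were seen, the log2 differences of these first 4 pairs were 0.67 for MT1X to MT2A, 1.55 for SLC30A1 to MTF1, 0.51 for MT1X to MT1E and 0.56 for SLC30A1 to MT1X, and none of the 4 overlapped.

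The cluster holds further metallothionein genes that are no members, and copies lie elsewhere in the genome. Of 14 such genes and pseudogenes, 5 had no count in any library, and only MT1XP1 passed the expression filter. MT1XP1, a processed copy of MT1X on chromosome 1, had 15, 12 and 17 counts in control and 43, 36 and 34 in Sev cells, or 0.336 ± 0.0287 and 0.986 ± 0.144 CPM (SD, n = 3), a log2 fold change of 1.54 (SE 0.27, edgeR adjusted p = 0.00335). Of the windows of MT1X, 38 were shared with MT1XP1, so its counts cannot be told apart from reads of MT1X in those windows. MT3, the brain-enriched metallothionein, had 8, 0 and 3 counts in control and 0, 5 and 2 in Sev cells. MT4, MT1L, MT1JP, MT1HL1, MT1P1, MT1P3 and MT2P1 had at most 6 counts in any library.

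**Figure D4:**
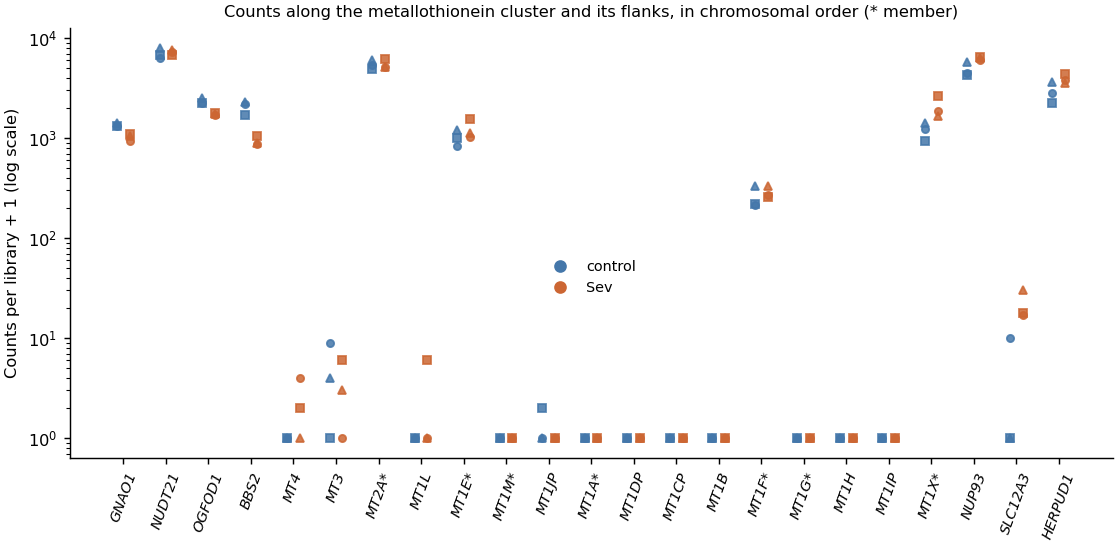
Counts + 1 per library (y axis, log scale) of the metallothionein genes on chromosome 16 and of the 7 listed flanking genes, in chromosomal order (x axis). Blue symbols are control and orange symbols Sev libraries, circles, squares and triangles are replicates 1, 2 and 3, and an asterisk marks a member. MT2A, MT1E, MT1F and MT1X stand out from a stretch of metallothionein genes with at most 8 counts.

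A list of 7 genes that flank the cluster and are no metallothioneins was tested in full. Higher in Sev cells were the nucleoporin gene NUP93 (111 ± 6.73 to 164 ± 5.69 CPM, log2 fold change 0.56), the endoplasmic reticulum stress gene HERPUD1 (66.6 ± 9.19 to 102 ± 12.7 CPM, 0.61), NUDT21 and SLC12A3. Lower were BBS2, a gene of the BBSome of cilia (47.5 ± 4.60 to 24.5 ± 2.97 CPM, −0.95), and OGFOD1 (53.7 ± 2.22 to 45.5 ± 1.58 CPM, −0.24). That is 6 of 7 called, against 43.7% of all tested features, and the list's median log2 fold change was 0.22. The calls of NUDT21, OGFOD1 and SLC12A3 were lost in 13 of 15, 9 of 15 and 8 of 12 alternatives that gave a value. OGFOD1 overlaps both BBS2 and NUDT21, which lie on the opposite strand.

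Among the other zinc exporters of the SLC30 family, 6 of 9 were tested and 1 was called, against 43.7% of all tested features. SLC30A6, whose product works in the early secretory pathway, fell from 44.5 ± 3.30 to 25 ± 1.85 CPM (SD, n = 3), with a fitted log2 fold change of −0.84 (SE 0.10, edgeR adjusted p = 0.000654). The list's median was −0.15, and the log2 fold change of 1.45 for SLC30A1 lay above all 6 of the other tested exporters.

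The SLC39 family carries zinc into the cytosol. Of 14 genes 12 were tested, 2 were higher and 3 lower, and the median log2 fold change was 0.13. Of all tested features 22.1% were higher and 21.5% lower, so the family's count was near the background. SLC39A4, the intestinal zinc importer ZIP4, rose from 0.265 ± 0.0412 to 1.62 ± 0.470 CPM (SD, n = 3), with a fitted log2 fold change of 2.59 (SE 0.33, edgeR adjusted p = 0.000789), from 9 to 15 counts in control libraries. SLC39A7, ZIP7 of the endoplasmic reticulum, rose from 189.7 ± 9 to 251.6 ± 26.2 CPM, with a fitted log2 fold change of 0.41 that was 0.26 when the libraries were scaled by size alone. SLC39A9 fell from 88.2 ± 20.3 to 42.5 ± 1.05 CPM, with a fitted log2 fold change of −1.05 (SE 0.16, edgeR adjusted p = 0.00182). SLC39A10 fell from 46.0 ± 2.22 to 34.8 ± 4.58 CPM, a call lost in 4 of the 6 fits without a library, and SLC39A11 fell by 0.33 on the log2 scale, a call lost in all 6.

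**Figure D5:**
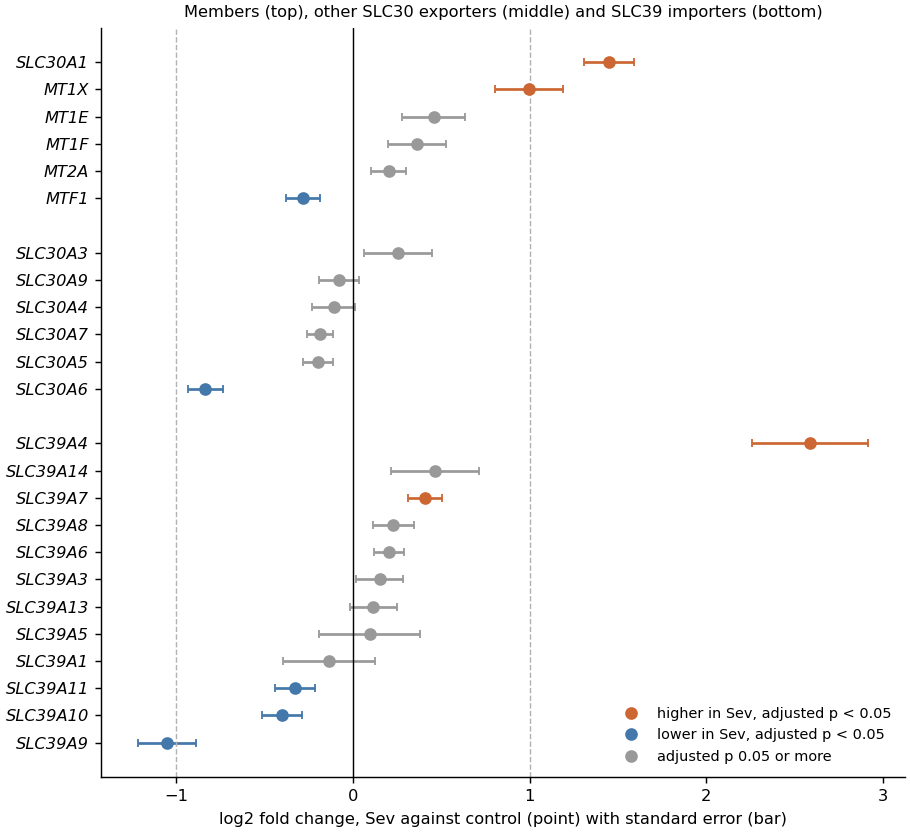
Log2 fold change of Sev against control (x axis, point) with its standard error (bar) for the tested members, the other SLC30 exporters and the SLC39 importers. Orange is higher and blue lower at an edgeR adjusted p under 0.05, grey is not called, and dashed lines mark −1 and 1. SLC30A1 lies at 1.45, MT1X at 0.996 and SLC39A4 at 2.59.

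Metallothioneins also bind copper, and the 12 copper-handling genes were all tested. Of these, 4 were lower and 3 higher, against 21.5% and 22.1% of all tested features. Those lower were the copper-exporting ATPases ATP7B (6.81 ± 0.775 to 2.66 ± 0.114 CPM, log2 fold change −1.36) and ATP7A (58.2 ± 1.39 to 35.5 ± 5.69 CPM, −0.71), the chaperone of superoxide dismutase CCS (11.7 ± 1.45 to 6.37 ± 0.847 CPM, −0.88), and COX11, whose call was lost in 4 of the 6 fits without a library. The importer SLC31A1 (log2 fold change 0.31), the chaperone ATOX1 (0.34) and superoxide dismutase SOD1 (0.34) were higher, but none of these 3 calls held when the libraries were scaled by size alone. Over all 15 alternatives SLC31A1 was lost in 6, ATOX1 in 9 and SOD1 in 10. The list's median log2 fold change was 0.066.

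Of 12 genes known to respond to metals and oxidants, 8 were higher and 1 lower, against 22.1% and 21.5% of all tested features. The median log2 fold change was 0.49. This list was chosen with earlier results of these data known, so its count is not an independent test. HMOX1, heme oxygenase, rose from 13.3 ± 3.54 to 59.9 ± 13.7 CPM (SD, n = 3), with a fitted log2 fold change of 2.17 (SE 0.24, edgeR adjusted p = 0.000436). The co-chaperone DNAJB1 rose from 173 ± 2.52 to 437 ± 36.4 CPM (log2 fold change 1.34), and GCLC, the catalytic subunit of the first enzyme of glutathione synthesis, from 39.5 ± 0.153 to 65.1 ± 1.91 CPM (0.72). SLC7A11, TXNRD1, SRXN1 and BAG3 also rose. HSPA1B passed narrowly, and its call was lost in 12 of 15 alternatives; it has a near-identical copy in HSPA1A, the gene that was almost without counts in Sev replicate 2. The chaperone gene HSPH1 fell from 98.0 ± 9.52 to 70.4 ± 5.62 CPM (−0.48). The remaining 3 genes, GCLM (log2 fold change 0.046), HSPA6 (−0.17) and HSPA1A (−0.45), were not called.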

How the data were processed

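RNA of U251 cells was isolated with TRIzol, depleted of ribosomal RNA, ligated to adapters that keep strand and sequenced in pairs. The authors deposited raw counts per gene and FPKM values for 61496 features, of which 60295 Ensembl identifiers were matched to symbols and 932 features carried MSTRG identifiers. The submitters' processing notes name bcl2fastq 2.19, featureCounts and build hg18. The aligner, the annotation and the handling of strand are not given in the sources used here. Positions were taken from GENCODE 29 on GRCh38 by Ensembl identifier and not compared with the authors' coordinates.

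Counts were filtered with filterByExpr, normalized by TMM and tested with the quasi-likelihood test of edgeR 4.0.16 in R 4.3.3 (2 groups, no covariate), with Benjamini-Hochberg adjustment over 27514 features. SEs come from the log2 fold change and the F statistic (their size over its square root). Libraries held 38624292 to 46318311 counts in groups of 3, and both the depth and this number limit the precision. As alternatives, scaling used the size factors of DESeq2 or the library size alone, the test was the Wald test of DESeq2 1.42.0, features were unfiltered or had 10 or more counts in all libraries, replicate numbers entered as a block, single libraries were left out, and limma 3.58.1 was run on log2(FPKM + 1), with features kept at 0.5 FPKM or more in 3 libraries and also unfiltered, and on log2(FPKM + 0.1).

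Coding sequences were those of the length most common among the metallothionein members. Named genes were all 9 members, the called genes of the lists with values for at most the 3 smallest p-values per list and direction, other metallothioneins with any count, and the 5 features most correlated with the summed metallothionein members at a mean CPM of at least 1. Values of other called genes, and the HSPA1A and marker counts, were added after they were seen. The members and lists were chosen with earlier results of these data known. The results for 2 listed genes are not reported here, and they were left out of the list counts, sums and medians.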

Additional observations from a re-analysis of the deposited data

How the results depend on the processing

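SLC30A1 and MT1X kept their calls in all 15 alternatives, with log2 fold changes of 1.12 to 1.54 and 0.77 to 1.15. MTF1 was lost with DESeq2's size factors (−0.27, adjusted p = 0.0603), DESeq2's Wald test (−0.27, 0.0709), no expression filter (−0.30, 0.0686) and the replicate block (−0.29, 0.0879), each of which left 0 members lower, against 1 at an unadjusted p under 0.05. Leaving out single libraries gave −0.37 to −0.22 for MTF1, with 0 to 1 members lower. MT1E passed with DESeq2's Wald test (0.47, adjusted p = 0.0378) and the replicate block (0.44, 0.0474), and its log2 fold change was 0.25 to 0.56 without single libraries. MT1F was at 0.26 to 0.48 and MT2A at 0.10 to 0.27 without single libraries. No member and no called gene of the lists, cell type markers included, changed direction where an alternative gave a value. With log2(FPKM + 1), which understates low genes, the changes of MT1XP1, ATP7B, CD14, GCLC and, unfiltered, SLC39A4 shrank to 0.99, −0.40, 0.97, 0.48 and 0.25 and kept their calls. SCRN1, which was not called, turned to −0.0047 with library size only, −0.0064 with log2(FPKM + 1), filtered or not, and −0.0065 with log2(FPKM + 0.1). Over all features, 6094 were higher and 5920 lower, with 4780 to 5709 and 4438 to 5521 when single libraries were left out. Limma on log2(FPKM + 1) gave 3676 higher and 6709 lower and on log2(FPKM + 0.1) 3623 and 6530, so that the share of calls that were higher went from 50.7% to 35.4% and 35.7%, and with library size only to 38.3% (4665 higher and 7502 lower) and with unfiltered FPKM to 40%. The replicate numbers gave no sign of pairing. Deviations of same-numbered libraries from their group means correlated at −0.0072, 0.0035 and 0.027, not every library correlated best with its own number, and the replicate block left 5228 features higher and 5021 lower. Depth limits the genes with no counts and those with few, such as MT3.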

Other observations

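The features whose log2 CPM followed the log2 of the summed metallothionein members most closely over the 6 libraries were ITGB5, an integrin subunit (Pearson r 0.997), the pseudogene HSD3BP5 (0.996), the phosphatase gene DUSP8 (0.995), SCRN1 (0.995) and the Wnt receptor FZD7 (0.994). Of 19440 candidates, 314 had an r over 0.95, and the 6 points share their libraries and the difference between the groups. Without Sev replicate 2, the library with the highest sum, r over the other 5 libraries was between 0.980 for DUSP8 and 0.993 for FZD7. This check was added after the data were seen. The features were picked by their r over all 6 libraries, so a high r in 5 of them was largely set in advance. FZD7 rose with a log2 fold change of 1.04 (edgeR adjusted p = 0.00987), whereas SCRN1 had a log2 fold change of 0.14 that did not pass (adjusted p = 0.163).

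Among the glial and glioma markers, CD44 rose from 385 ± 19.1 to 755 ± 39.7 CPM (SD, n = 3, edgeR adjusted p = 0.000174). SOX2 fell from 286 ± 7.22 to 173 ± 9.80 CPM (edgeR adjusted p = 0.000367). S100B fell from 22.2 ± 5.55 to 10.3 ± 0.235 CPM (edgeR adjusted p = 0.00215). The other 4 of these 7 markers, VIM, NES, GFAP and SOX9, were not called. The list's median log2 fold change was 0.033, and 43.7% of all tested features were called. The monocyte gene CD14 rose from 1.34 ± 0.0549 to 4.97 ± 1.04 CPM (edgeR adjusted p = 0.00046). The endothelial gene PECAM1 rose from 0.693 ± 0.258 to 1.31 ± 0.151 CPM (edgeR adjusted p = 0.0409), a call lost in 8 of the 13 alternatives that gave a value. The other endothelial markers, CDH5 (4.07 ± 0.590 to 3.86 ± 0.330 CPM) and VWF (3.29 ± 0.703 to 3.39 ± 1.22 CPM), were not called. The part of these markers in the changes of SLC30A1 and MT1X was not tested.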
